A study of Mus musculus with 10 samples.

Results

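The IL-17, IL-23 and IL-20 cytokine families were followed in inflamed mouse ear skin through 10 genes, which were chosen by name and matched by gene symbol among the 41388 genes of the deposited tables. The genes encode the ligands Il17a, Il17f, Il22, Il20 and Il24, the IL-23 subunits Il23a and Il12b, and the receptor chains Il17ra, Il17rc and Il22ra1. RNA of whole ear skin was sequenced from 6 Experimental mice and 4 Littermates, all of strain C57Bl/6, with 1 library per mouse. The sources disagree on the Experimental genotype, which the sample labels give as NaV1.8+ Jak1F/F and the series text as NaV1.8+ Il4raF/F. The Littermates are labelled WT. Mice of both groups received MC903 (calipotriol), a vitamin D analogue that inflames the skin when painted on it, and the series text gives 1 nM daily for 12 days beside the Littermates. Every mouse was therefore treated, and the comparison is of genotype within MC903 dermatitis. NaV1.8 is a sodium channel of sensory neurons whose cell bodies lie outside the ear, so most of the RNA measured here comes from cells in which such a driver is not active. The labels give no age, sex, litter or batch. Neither gene named as targeted differed between the groups past the threshold in whole skin, which cannot check a deletion in sensory neurons. Jak1 stood at 273 to 324 normalized CPM in Experimental and 280 to 335 normalized CPM in Littermate skin (edgeR, adjusted p = 0.815), and Il4ra at 130.2 to 270.1 normalized CPM in Experimental and 184 to 236 normalized CPM in Littermate skin (edgeR, adjusted p = 0.678).

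IL-17A and IL-17F are related cytokines secreted as dimers by gamma delta T cells, T helper 17 cells and innate lymphoid cells. They act on keratinocytes and fibroblasts through a receptor that holds the chains IL-17RA and IL-17RC, and induce neutrophil chemokines and antimicrobial proteins. IL-23, made by dendritic cells and macrophages from the subunits p19 (Il23a) and p40 (Il12b, shared with IL-12), sustains those lymphocytes. IL-22, IL-20 and IL-24 belong to the IL-20 family, bind receptors on epithelial cells that can contain IL-22RA1, and signal through JAK1 and STAT3 to change keratinocyte growth and differentiation.

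Total counts ran from 11520348 to 41935183 in the Experimental libraries and from 12865459 to 14324433 in the Littermate libraries, so that 3 reads were worth 0.0715 to 0.260 CPM (counts normalised to library depth) in Experimental and 0.209 to 0.233 CPM in Littermate libraries. A gene was called at the detection limit in a library where it had 3 reads or fewer. The 7 measured keratinocyte markers summed to 31304 to 41629 normalized CPM in Experimental and 36144 to 41286 normalized CPM in Littermate skin. Marker genes of T cells summed to 38.6 to 46.4 normalized CPM in Experimental and 39.5 to 49.8 normalized CPM in Littermate skin. Those of gamma delta T cells summed to 30.7 to 41.9 normalized CPM in Experimental and 34.8 to 46.5 normalized CPM in Littermate skin. In whole tissue, fewer cells of a type and less RNA per cell cannot be told apart.

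The receptors were abundant in the treated skin and the lymphocyte cytokines Il17a, Il17f and Il22 had few or no reads. Of the 10 genes, 4 had over 3 reads in every library (Il17rc, Il22ra1, Il17ra and Il24), 4 were at or under 3 reads in some libraries (Il20, Il12b, Il23a and Il17f), and Il17a and Il22 were at the limit in all 10. Compared per length, as the deposited RPKM (CPM per kilobase of gene), Il17rc had the highest level, at 59.2 ± 3.21 RPKM in Experimental (SD, n = 6) and 56.1 ± 5.57 RPKM in Littermate skin (SD, n = 4). Il22ra1 came next, at 19.7 ± 2.51 RPKM in Experimental and 18.4 ± 1.62 RPKM in Littermate skin. Il17ra followed, at 12.5 ± 1.62 RPKM in Experimental and 14.9 ± 1.35 RPKM in Littermate skin. Below the receptors came Il24, at 4.02 ± 2.16 RPKM in Experimental and 3.47 ± 0.352 RPKM in Littermate skin. These 4 levels were separated from each other by more than their SDs in both groups.

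The remaining 6 genes all averaged under 1 RPKM. Il20 averaged 0.477 ± 0.198 RPKM in Experimental and 0.592 ± 0.473 RPKM in Littermate skin. Il12b averaged 0.306 ± 0.168 RPKM in Experimental and 0.149 ± 0.120 RPKM in Littermate skin, whereas Il23a averaged 0.241 ± 0.0578 RPKM in Experimental and 0.531 ± 0.181 RPKM in Littermate skin. The IL-23 subunits therefore changed places in the order, Il12b ahead of Il23a in Experimental and Il23a ahead of Il12b in Littermate skin. In Experimental skin Il20, Il12b and Il23a were neighbours whose mean ± SD ranges overlapped, and in Littermate skin Il20 and Il23a overlapped while Il12b lay below Il23a by more than the SDs. Il17a, Il17f and Il22 averaged at most 0.0557 RPKM in Experimental and 0.0932 RPKM in Littermate skin, and neighbours among these 3 did not differ beyond their spread.

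**Figure D1:**
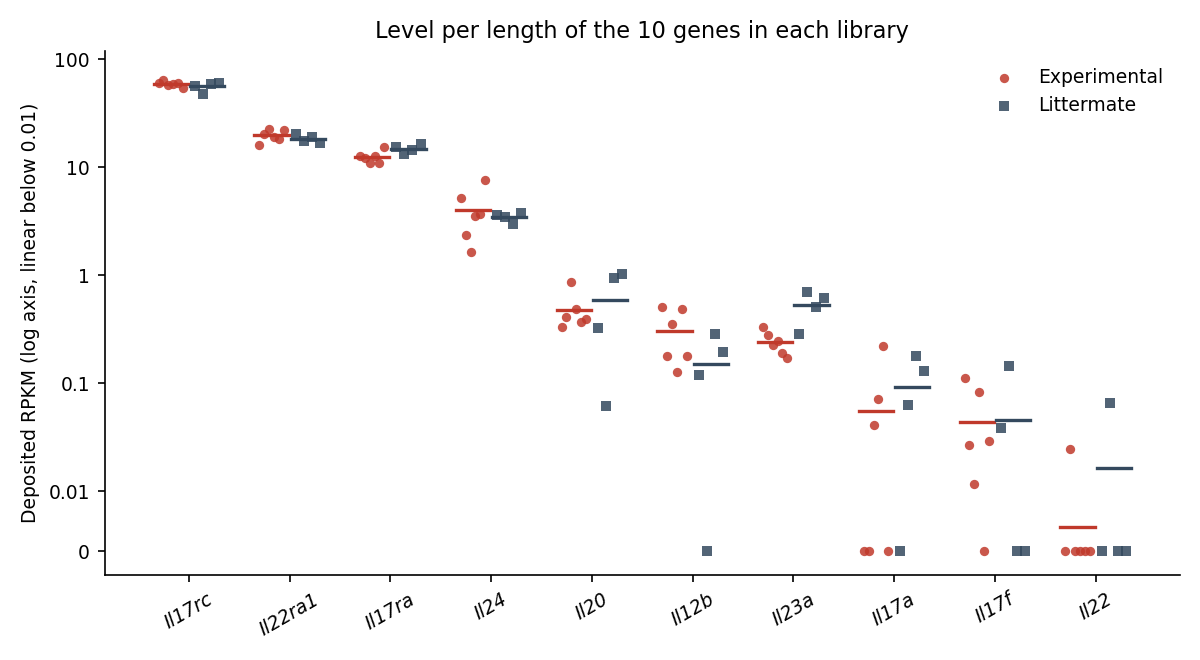
Level per length of each gene in each library (deposited RPKM, log axis that is linear below 0.01, 6 Experimental libraries as circles and 4 Littermate libraries as squares; lines are means). The receptor chains Il17rc, Il22ra1 and Il17ra and the ligand Il24 lie above 1 RPKM in every library, and Il17a, Il17f and Il22 reach 0 in some libraries of both groups.

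The promoters of Il17a, at the limit of detection, and of the abundant receptor chains Il17rc and Il22ra1 are shown because these genes lie low and high in that order. The sequences are those of RefSeq on GRCm38.p6, each on the plus strand, and end before the gene's start in both RefSeq and the authors' tables. Capitals mark matches on either strand to TATAAA, the core of the TATA box, or to GGGCGG, the core of the GC box, and no matches overlap.
Il17a, chr1:20730655-20730904: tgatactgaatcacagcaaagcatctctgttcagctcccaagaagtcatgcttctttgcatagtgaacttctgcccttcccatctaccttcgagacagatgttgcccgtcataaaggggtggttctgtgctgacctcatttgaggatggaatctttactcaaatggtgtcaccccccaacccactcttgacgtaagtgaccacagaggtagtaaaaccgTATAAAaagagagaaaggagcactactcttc
Il17rc, chr6:113471205-113471426: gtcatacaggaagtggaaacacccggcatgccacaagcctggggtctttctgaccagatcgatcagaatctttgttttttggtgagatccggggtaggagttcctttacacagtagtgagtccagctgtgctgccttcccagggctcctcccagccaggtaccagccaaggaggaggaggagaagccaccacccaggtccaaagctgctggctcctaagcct
Il22ra1, chr4:135727909-135728158: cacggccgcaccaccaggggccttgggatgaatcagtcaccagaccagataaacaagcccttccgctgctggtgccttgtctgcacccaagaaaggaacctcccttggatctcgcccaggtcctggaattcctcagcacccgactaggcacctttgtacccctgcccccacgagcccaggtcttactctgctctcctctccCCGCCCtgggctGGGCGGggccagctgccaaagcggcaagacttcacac
Within 250 bases before the RefSeq start, the Il17a promoter held 1 TATAAA, which began 31 bases upstream and which 13.0% of all 27025 promoters of that length hold. The Il22ra1 promoter held 2 matches to GGGCGG, a motif present in 32.9% of the promoters. Neither motif was in the Il17rc window, and TTCNNNGAA, the core that STAT proteins bind, was in none of the 3 windows and in 7.18% of all promoters. The G and C content of the 250 bases was 46.0% for Il17a, 57.6% for Il17rc and 62.4% for Il22ra1, against a median of 52.0% over all promoters. A match or its absence describes these letters alone.

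Il17a (ENSMUSG00000025929, mm10 chromosome 1, 20730905 to 20734496) had 12 reads over the 10 libraries. In Experimental libraries it had between 0 and 3 reads with a median of 0.5, and in the Littermates it had 0, 1, 3 and 2 reads. Pooled over libraries this was 0.0437 CPM in Experimental skin, with an exact Poisson 95% interval from 0.0160 to 0.0951, and 0.111 CPM in Littermate skin, with an interval from 0.0409 to 0.243. The intervals overlap, and the ratio was 0.392 with an exact interval from 0.105 to 1.47. All intervals on reads cover counting error only and leave out the spread between mice, and pooling gives most weight to the deepest libraries. They also treat reads as independent, which reads copied by PCR are not.

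Il17f (ENSMUSG00000041872, chromosome 1, 20777146 to 20790617), which encodes the partner of IL-17A in the mixed dimer, had between 0 and 4 reads in Experimental libraries with a median of 1.5, and 1, 4, 0 and 0 reads in the Littermates. The pooled ratio was 0.784 with an exact interval from 0.244 to 2.92. Its direction is not settled by these reads, since the log2 fold change with no filter was -0.25 over all libraries, 1.4 without Littermate 2 and 0.06 without Experimental 3 (edgeR, adjusted p = 0.947, 0.728 and 0.986). The gene lies on the opposite strand of the same chromosome as Il17a. Of the 50-base windows of Il17f transcripts, 5.63% also occur in transcripts of other genes, so that some of its few reads could have come from elsewhere. None of the windows of Il17a occurs in another gene.

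Il22 (ENSMUSG00000074695, chromosome 10, 118204942 to 118210047) had 1 read in Experimental skin, in replicate 2, and 1 read in Littermate skin, also in replicate 2. The other 8 libraries had none, and both groups stayed under the worth of 3 reads over the group, 0.0218 CPM in Experimental and 0.0557 CPM in Littermate skin. Of the 50-base windows of Il22 transcripts in GENCODE M21, 41.0% are shared with its near-identical copy Iltifb. That copy itself had 1 read in these data, so that reads of the copies cannot be assigned with certainty. Differences in Il17a, Il17f and Il22 between the genotypes were not detectable at this depth.

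The IL-23 subunits had more reads. By pooled reads Il23a was lower and Il12b higher in Experimental skin, but the groups' ranges overlapped for both genes and neither passed the test. Il23a (ENSMUSG00000025383, chromosome 10, 128296140 to 128298084), the subunit particular to IL-23, stood at 0.234 CPM in the lowest, 0.322 CPM in the median and 0.448 CPM in the highest Experimental library. The Littermates had 0.389, 0.954, 0.698 and 0.846 CPM. Of the Experimental libraries, 5 of 6 lay below all Littermates, and the groups overlapped through Littermate 1, which held 5 reads. Pooled counts were 46 reads in Experimental and 39 reads in Littermate skin, a ratio of 0.462 with an exact interval from 0.295 to 0.728 that covers counting error only. Il23a did not pass the filter on low counts. With no filter its log2 fold change was -1.10 with an SE of 0.36 (edgeR, unadjusted p = 0.00472, adjusted p = 0.284), which did not pass, and with any 1 library left out it ran from -1.30 to -0.95 (edgeR, adjusted p from 0.249 to 0.748).

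Il12b (ENSMUSG00000004296, chromosome 11, 44400063 to 44414033), the p40 subunit, had 80 reads in Experimental and 16 reads in Littermate skin, a pooled ratio of 1.96 with an exact interval from 1.14 to 3.59. The Experimental libraries had 0.250 CPM at the lowest, 0.522 CPM at the median and 1.01 CPM at the highest, and the Littermates had 0.233, 0, 0.558 and 0.384 CPM. Of the Experimental libraries, 3 of 6 lay above all Littermates, and Littermate 2 had no read. With no filter the log2 fold change was 0.97 with an SE of 0.54 (edgeR, adjusted p = 0.643). It was 0.56 without Littermate 2 and 1.52 without Littermate 3 (edgeR, adjusted p = 0.702 and 0.492). The difference between the subunits' fold changes was not tested. Summed markers of dendritic and Langerhans cells, a source of IL-23, stood at 183 to 207 normalized CPM in Experimental and at 169, 167, 223 and 163 normalized CPM in Littermate skin. Every Experimental library lay above Littermates 1, 2 and 4, and Littermate 3 was the highest Littermate for these markers and for Il12b. Within Experimental skin the order differed. Replicate 5 had 0.955 CPM of Il12b with a marker sum of 185, and replicate 4 had 0.250 CPM with 203. Markers of macrophages, another source, are given below with Il17ra. Of the 9 dendritic and Langerhans cell markers 0 passed in edgeR. At an unadjusted p under 0.05 there were 2 higher and 0 lower, against 3.65% and 8.1% of all tested genes. The part of these markers in the values of the subunits was not tested.

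**Figure D2:**
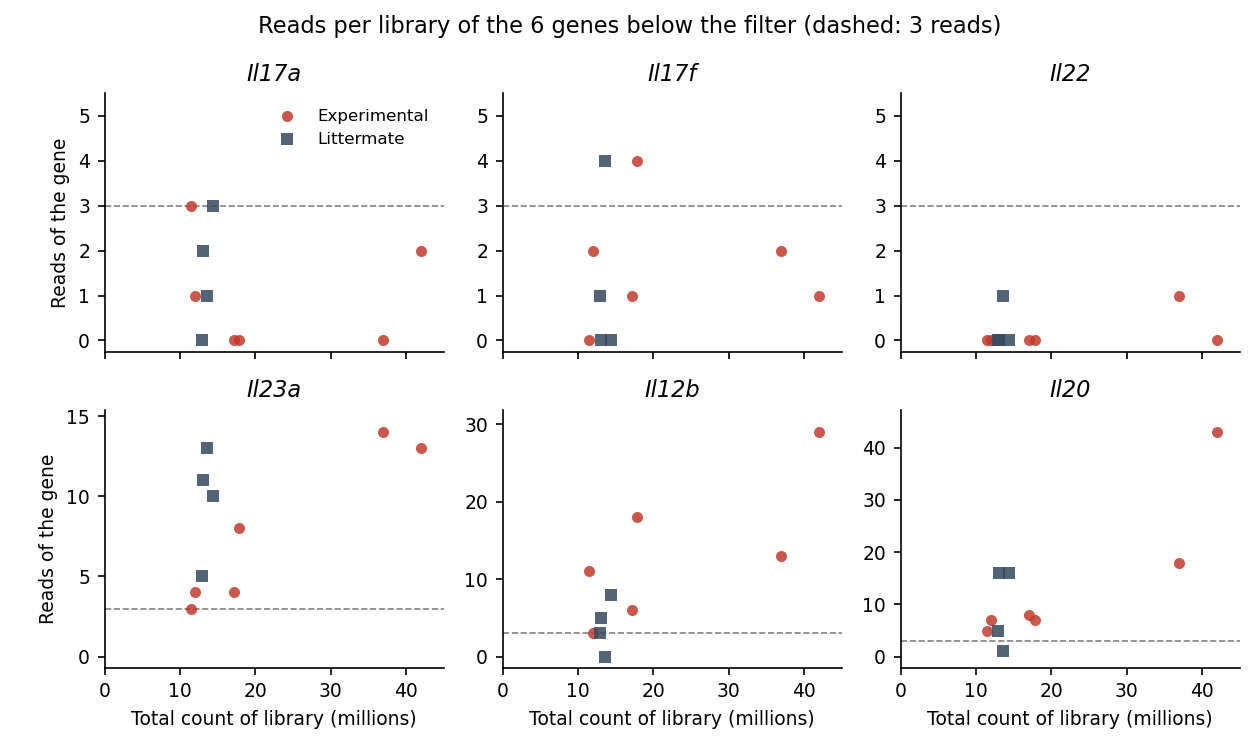
Reads of the 6 genes below the filter (vertical axes) against the total count of each library (horizontal axes), with 6 Experimental libraries as circles, 4 Littermate libraries as squares and a dashed line at 3 reads. Il17a and Il22 stay at or under 3 reads even in the deepest library, and the Experimental libraries for Il23a have fewer reads than most Littermates unless they are deep.

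Il20 (ENSMUSG00000026416, chromosome 1, 130906985 to 130911451) and Il24 (ENSMUSG00000026420, chromosome 1, 130882074 to 130887454) are neighbours and encode ligands that share receptors with each other. Il20 had 5 reads in the lowest and 43 reads in the highest Experimental library, with a median of 7.5, and 5, 1, 16 and 16 reads in the Littermates. In CPM this was 0.392 to 1.03 in Experimental and 0.0734 to 1.23 in Littermate skin, so the Experimental range lay inside that of the Littermates. With no filter on low counts its log2 fold change was -0.22 with an SE of 0.48 (edgeR, adjusted p = 0.901). Leaving out Littermate 3 gave 0.12, leaving out Littermate 4 gave 0.18, and the value was -0.59 without Littermate 2 and -0.58 without Experimental 3 (edgeR, adjusted p = 0.957, 0.943, 0.558 and 0.732 in that order), so that its direction rested on single libraries.

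Il24, a keratinocyte cytokine, was the only one of the 7 ligand and subunit genes that passed the filter. In normalized CPM (scaled by TMM factors) it stood at 2.29 in the lowest, 4.99 in the median and 10.6 in the highest Experimental library, and at 5.09, 4.84, 4.19 and 5.30 in the Littermates. The Experimental mice spread on both sides of the Littermates, with 2 of 6 libraries above and 2 of 6 below all of them. Those below were replicates 2 and 3, at 3.30 and 2.29 normalized CPM. They were also the deepest, with total counts of 36911819 and 41935183, where no other library exceeded 17847542. The part of depth in this spread was not tested. The coefficient of variation of the deposited CPM was 53.7% in Experimental and 10.1% in Littermate skin. Il24 averaged 5.55 ± 2.98 normalized CPM in Experimental (SD, n = 6) and 4.85 ± 0.478 normalized CPM in Littermate skin (SD, n = 4). The log2 fold change, 0.16, had a 95% interval between -0.69 and 1.00 (edgeR, adjusted p = 0.912). Without Experimental 6 the value was -0.15 (edgeR, adjusted p = 0.869), so that its direction rested on that library, and limma voom on all libraries also gave -0.15. Per length and within a library, Il24 exceeded Il20 by 1.91 to 19.5 times in Experimental skin and by 3.16 to 11.1 times in Littermates 1, 3 and 4, while Littermate 2 had 1 read of Il20.

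Of the 4 genes tested, 0 passed in edgeR after adjustment over all 16830 genes. Over all genes 0.0178% passed, 0.00594% higher and 0.0119% lower in Experimental skin. Of the 4, 0 also passed in DESeq2 or in limma voom with or without quality weights. Of all tested genes, DESeq2 called 1.35%, voom with quality weights called 0.339%, and voom without them called 3 genes. At an unadjusted p under 0.05 there was 1 of the 4, Il17ra, which was lower, where 11.8% of all tested genes met that level, 3.65% higher and 8.1% lower. The groups' ranges overlapped for each of the 4, while 2.12% of tested genes had ranges that did not overlap, 0.761% higher and 1.35% lower. Their median log2 fold change was 0.07, against -0.0013 over all tested genes. With no filter on low counts 0 of the 10 passed in edgeR, where 0.264% of genes passed (0.241% lower), and 2 of the 10, Il17ra and Il23a, had an unadjusted p under 0.05, where 8.8% of genes did.

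Il17ra (ENSMUSG00000002897, chromosome 6, 120463197 to 120483727) encodes the chain shared by the receptors for several IL-17 cytokines. It stood at 43.5 normalized CPM in the lowest, 48.9 in the median and 60.6 in the highest Experimental library, and at 62.1, 52.4, 58.6 and 65.8 normalized CPM in the Littermates. Of the Experimental libraries, 5 of 6 lay below all Littermates and replicate 6 lay among them. The means were 49.4 ± 6.22 normalized CPM in Experimental (SD, n = 6) and 59.7 ± 5.69 normalized CPM in Littermate skin (SD, n = 4). The log2 fold change, -0.27, had an SE of 0.10 and a 95% interval between -0.48 and -0.07 (edgeR, unadjusted p = 0.0117, adjusted p = 0.278), which did not pass. Without both Littermate 2 and Experimental 6 it was -0.39 and passed (edgeR, adjusted p = 0.0200), in a fit where 563 genes passed. With any 1 library left out edgeR's adjusted p lay between 0.0890 and 0.688, and with the level of Y-linked genes as a covariate the value was -0.16 (edgeR, adjusted p = 0.949). Summed Y-linked genes stood at 282 to 339 normalized CPM in Experimental and 228 to 301 normalized CPM in Littermate skin. No library lacked them, so this covariate does not set male against female mice, and its level partly follows the groups.

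The summed level of 9 macrophage and monocyte markers was below all Littermates in 5 of 6 Experimental libraries, at 1431 to 2176 normalized CPM in Experimental and 1987 to 2290 normalized CPM in Littermate skin. Experimental 6 had the highest sum of its group, as it had for Il17ra. Other libraries did not run alike. Littermate 2 had the highest sum of all libraries but the lowest Il17ra of the Littermates, at 52.4 normalized CPM. Experimental 4 had the lowest sum, with Il17ra at 49.9 normalized CPM. Of these 9 markers 1 passed in edgeR, Lyz2, which was lower, where 0.0119% of all genes passed as lower. At an unadjusted p under 0.05 there were 2 lower and 1 higher, against 8.1% and 3.65% of all genes. The part of these markers in the value of Il17ra was not tested.

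Il17rc (ENSMUSG00000030281, chromosome 6, 113471427 to 113483140) encodes the second chain of the receptor for IL-17A and IL-17F. It stood at 144 normalized CPM in the lowest, 158 in the median and 170 in the highest Experimental library, and at 153, 128, 160 and 164 normalized CPM in the Littermates. The ranges overlapped widely, with Littermate 2 lowest of all 10. The log2 fold change, 0.06, had a 95% interval between -0.11 and 0.22 (edgeR, adjusted p = 0.820). Per length, Il17rc exceeded Il17ra within each library, by 4.72, 5.28, 5.30, 4.57, 5.49 and 3.52 times in Experimental replicates 1 to 6 and by 3.66, 3.64, 4.06 and 3.71 times in the Littermates. The ratio was above all Littermates in 5 of the 6 Experimental libraries and below all of them in replicate 6. It takes in the values of Il17ra given above, so it is not a separate observation, and it was not tested.

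Il22ra1 (ENSMUSG00000037157, chromosome 4, 135728172 to 135752140) encodes the chain that epithelial cells use to sense IL-22, IL-20 and IL-24. It stood at 41.1 normalized CPM in the lowest, 50.0 in the median and 57.8 in the highest Experimental library, and at 52.3, 44.7, 50.2 and 43.4 normalized CPM in the Littermates. Experimental 3 and 6 were above all Littermates and Experimental 1 was below all of them. The log2 fold change, 0.09, had a 95% interval between -0.12 and 0.30 (edgeR, adjusted p = 0.775).

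**Figure D3:**
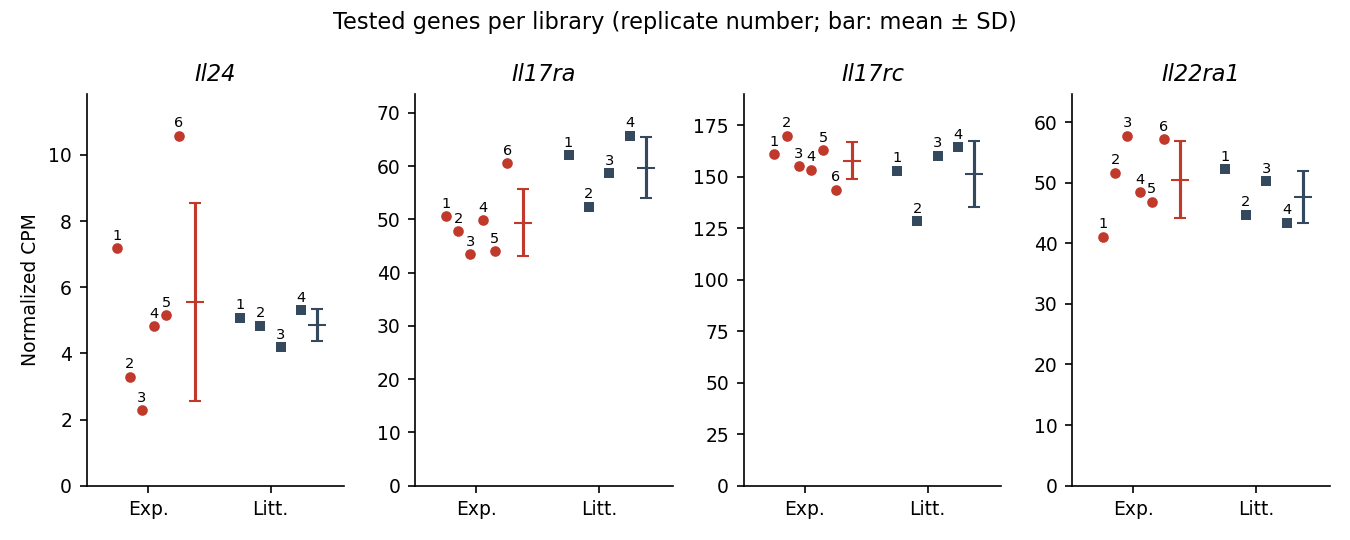
Normalized CPM of the 4 tested genes in each library, from 0, with replicate numbers above the points and mean ± SD beside them (6 Experimental libraries as circles, 4 Littermate libraries as squares). Il24 spreads from 2.29 to 10.6 in Experimental skin around a narrow Littermate group, and Il17ra is lower in all Experimental libraries but replicate 6.

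The other ligands and receptors of these families were measured as lists that include the genes above. In the IL-17 family 6 of 11 genes were tested and 0 passed in edgeR, DESeq2 or either voom fit, with 2 at an unadjusted p under 0.05, both lower, where 8.1% of all tested genes were lower, and a median log2 fold change of -0.08. The second of these was Il17re, part of the epithelial receptor for IL-17C, at 13.4 ± 0.737 normalized CPM in Experimental (n = 6) and 16.2 ± 2.82 normalized CPM in Littermate skin (n = 4), or -0.28 on the log2 scale (edgeR, adjusted p = 0.329). Il17rd, a further receptor homologue, had a log2 change of 0.08 (edgeR, adjusted p = 0.836).

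Among IL-23 and IL-12 genes 5 of 9 were tested and 0 passed in edgeR, DESeq2 or either voom fit, with 0 at an unadjusted p under 0.05 and a median log2 fold change of 0.03. Il23r, the receptor chain that lymphocytes use to sense IL-23, had 2.64 ± 0.721 normalized CPM in Experimental (n = 6) and 2.24 ± 0.442 normalized CPM in Littermate skin (n = 4), or 0.20 on the log2 scale (edgeR, adjusted p = 0.759). Ebi3, a subunit of IL-27, had a log2 change of -0.29 (edgeR, adjusted p = 0.584).

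Of the IL-20 family 10 of 12 genes were tested and again 0 passed in edgeR, DESeq2 or either voom fit, with 0 at an unadjusted p under 0.05 and a median of 0.08. Il20ra, which pairs with IL-20RB in the receptor for IL-20 and IL-24, had 49.0 ± 1.89 normalized CPM in Experimental (n = 6) and 44.7 ± 7.64 normalized CPM in Littermate skin (n = 4), or 0.13 on the log2 scale (edgeR, adjusted p = 0.608). Il10, an anti-inflammatory cytokine of the same structural family, had a log2 change of -0.31 (edgeR, adjusted p = 0.702). The partner chains of IL-22RA1 were also abundant per length. Il20rb had 23.0 ± 1.59 RPKM in Experimental and 23.3 ± 2.23 RPKM in Littermate skin, and Il10rb, the partner for IL-22, had 5.99 ± 0.484 RPKM in Experimental and 5.66 ± 0.339 RPKM in Littermate skin. The values of these partners were looked up after the members' values were known.

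**Figure D4:**
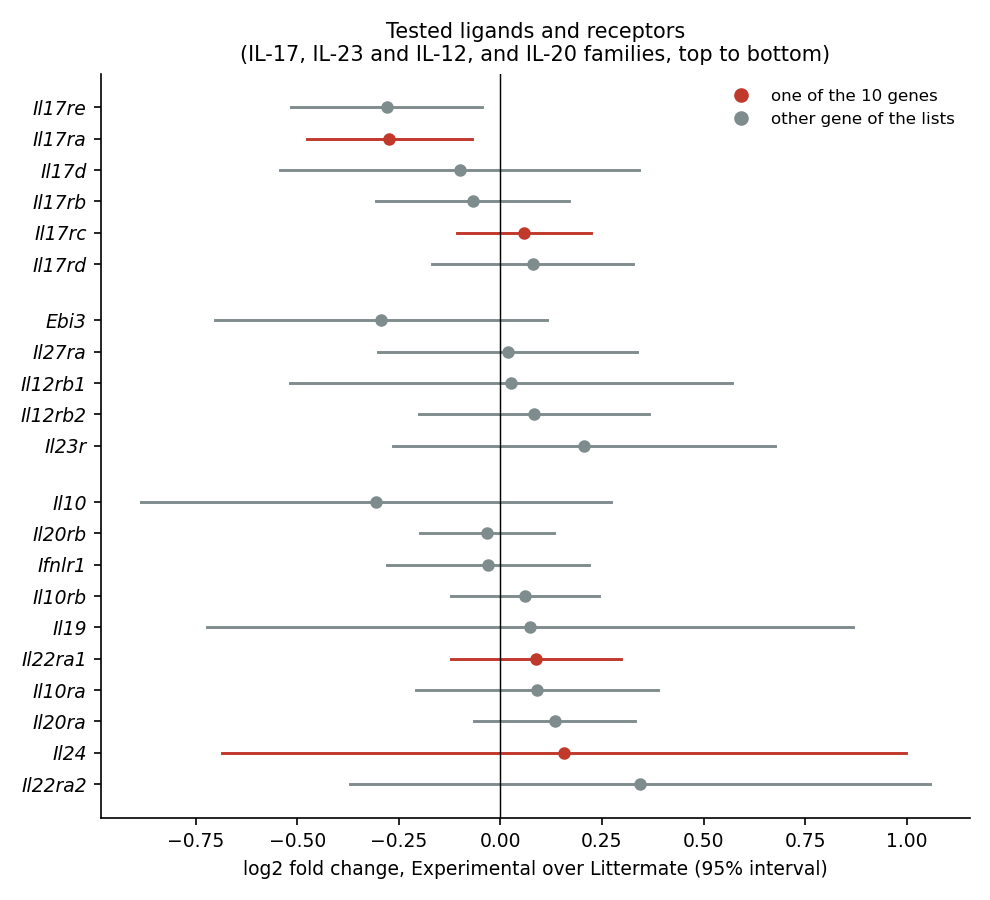
Log2 fold change of Experimental over Littermate skin with 95% intervals for the tested ligands and receptors of the 3 families; a line marks 0, and those among the 10 genes are red. Of the intervals, those of Il17ra and Il17re lie wholly below 0, and neither gene passed after adjustment over all genes.

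Below the receptors, 23 of 23 signalling genes were tested and 0 passed in edgeR, DESeq2 or either voom fit. In edgeR 1 was higher and 1 lower at an unadjusted p under 0.05, where 3.65% and 8.1% of all tested genes were. The median log2 fold change was -0.07. Zc3h12a, which encodes the RNase Regnase-1 that limits IL-17 signalling, had 38.8 ± 3.79 normalized CPM in Experimental (n = 6) and 47.8 ± 5.77 normalized CPM in Littermate skin (n = 4), or -0.31 on the log2 scale (edgeR, adjusted p = 0.216). Stat4, the transcription factor activated by IL-12, had a log2 change of 0.54 (edgeR, adjusted p = 0.351).

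In the type 17 lymphocyte programme 15 of 15 genes were tested and 0 passed in edgeR, DESeq2 or either voom fit, with 2 of the 15 lower at an unadjusted p under 0.05 and a median of -0.06. Over all tested genes 8.1% were lower at that level, so the list's share is near the background. The lowest p-values were those of Maf, a transcription factor of IL-17-producing lymphocytes that macrophages also express, with a log2 change of -0.30 (edgeR, adjusted p = 0.217), and Sox13, a transcription factor of gamma delta T cells, with one of -0.36 (edgeR, adjusted p = 0.273).

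Among genes of keratinocytes and fibroblasts known to respond to IL-17 or IL-22, 28 of 31 were tested and 0 passed in edgeR or limma voom, while DESeq2 called 3 (Csf3, Sprr2h and Mmp13), where it called 1.35% of all genes, and voom with quality weights called Mmp13, where it called 0.339% of all genes. At an unadjusted p under 0.05 in edgeR 3 were higher and 2 were lower, where 3.65% of all tested genes were higher and 8.1% lower, and the list's median log2 fold change was -0.04. In 4 of the 28 the groups' ranges did not overlap, against 2.12% of all tested genes. This is a description only, since the list was chosen with earlier results of these data known and was not tested as a set. The changes with the lowest p went opposite ways. Csf3, the growth factor of neutrophils, stood at 0.572 normalized CPM in the lowest, 1.05 in the median and 2.62 in the highest Experimental library, below every Littermate, where it ran from 3.13 to 6.55 normalized CPM. Its log2 fold change was -1.82 with an SE of 0.37 (edgeR, adjusted p = 0.0860). Mmp13, a collagenase, stood at 49.4 to 81.8 normalized CPM in Experimental, above every Littermate at 16.7 to 38.4, with a log2 fold change of 1.26 and an SE of 0.24 (edgeR, adjusted p = 0.0895). Neutrophil markers, which include 2 genes of the same list, summed to 220 to 552 normalized CPM in Experimental and 332 to 634 normalized CPM in Littermate skin, and their part in these values was not tested.

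For each tested member, the 2 genes whose log2 CPM ran most alike over the 10 libraries were sought among 15720 genes with at least 1 CPM on average. They are named as a description, since they were picked for the highest Pearson r. For Il17ra they were Cmklr1, a receptor for the chemoattractant chemerin (r = 0.96, rho = 0.96), and the aggrecanase Adamts4 (r = 0.96, rho = 0.96). For Il17rc they were Slc35a4 (r = 0.95) and Afap1l2 (r = 0.92), and for Il22ra1 Nt5c2 (r = 0.94) and Clca2 (r = 0.90). For Il24 they were Ocstamp (r = 0.93) and Psmf1 (r = 0.91), whose likeness takes in the high value of Experimental 6.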

How the data were processed

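The submitters' processing notes name STAR 2.0.4b, Subread, featureCounts 1.4.5 and mm10. Annotation, strandedness and multi-mapping: not given in the sources used here. Per the labels' protocols, ribosomal RNA was depleted and single reads of 50 bases were sequenced. The authors deposited a read count per gene, CPM (count scaled to the library total) and RPKM (CPM per kilobase of gene length). Tests used the counts; RPKM served only to compare genes.

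Counts of all 10 libraries were fitted with edgeR 4.0.16 (TMM, filterByExpr, robust quasi-likelihood test, two-sided, Benjamini-Hochberg over 16830 genes, threshold 0.05), with group as the only term. The SE is the size of the log2 fold change divided by the square root of F. The alternatives used limma 3.58.1, DESeq2 1.42.0, other size factors and filters, a replicate block, a Y-linked covariate, GC correction and libraries left out. The steps were tested on simulated counts. Symbols matched 97.3% of gene IDs, and 2 symbols of the lists matched none. Promoters came from RefSeq (GRCm38.p6), shared windows from GENCODE M21. The genes and lists were chosen with earlier results of these data known. Besides the members, the text names up to 4 called genes per list, or the lowest p-values until 2 were named, and the 2 genes most correlated with each tested member. Whether the mice came from separate litters is not stated, so p-values measure only the spread between these samples.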

Additional observations from a re-analysis of the deposited data

Results flagged for a closer look

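Among 20 sets of values (10 genes in 2 groups), 4 had a library far from the others of its group by Dixon's criterion. Chance gives about 1 in 20 for continuous values, a share that does not hold for sets of tied zeros. Il20 was highest in Experimental 3, at 1.02 normalized CPM from 43 reads, in the deepest library. The other 3 rest on 1 to 3 reads. Il17a stood at 0.262 normalized CPM in Experimental 5 (3 reads). Il22 stood at 0.0270 normalized CPM in Experimental 2 and at 0.0732 normalized CPM in Littermate 2, from 1 read each, and a single read among zeros meets the criterion by construction.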

How the results depend on the processing

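Of the 10 genes, all were tested with no filter and 4 to 6 in the other alternatives. Of those tested, 0 were called in 19 of 20 alternatives and 1 (Il17ra, log2 fold change -0.39) without both Littermate 2 and Experimental 6. Over all genes, 3 were called in the edgeR fit reported, against 78 with no filter, 227 with DESeq2, 57 with voom and quality weights, 67 with the replicate block and 563 without those 2 libraries. Leaving out each library in turn gave 3 to 343 (343 without Littermate 2, 28 without Experimental 6, 8 without Littermate 3). Il24 changed direction with voom (-0.15), with voom and quality weights (-0.18), with the replicate block (-0.26), without Experimental 6 (-0.15) and without the 2 libraries (-0.15), and lay between -0.15 and 0.36 over the single libraries left out. Il17rc turned to -0.013 without Littermate 2, the end of a range up to 0.11, and Il22ra1 to -0.0030 with the Y-linked level as a covariate. With GC correction Il17rc was 0.23. The causes were not tested. Il17ra was negative in all 20 alternatives, from -0.39 to -0.16. Same-numbered libraries of the groups showed no sign of deviating together (correlations from -0.02 to 0.09, against -0.13 to 0.14 for the other pairs). So few pairs cannot exclude a pairing of the mice. The labels give no litter or batch, so the replicate block is only an alternative. Depth limits Il17a, Il17f and Il22, where a library's 3 reads are worth up to 0.260 CPM. RPKM with TMM factors moved no level by more than 1 SD.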

Other observations

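Outside the 10 genes, 2 cytokine genes of the lists fell below the filter and are given here because of their counts, which were seen first. Csf2, which encodes GM-CSF, a product of IL-23-responsive lymphocytes and other cells, had between 1 and 24 reads in Experimental libraries with a median of 5.5, the highest in replicate 6, and 0, 0, 0 and 1 reads in the Littermates. Pooled, this was 0.371 CPM in Experimental and 0.0186 CPM in Littermate skin, a ratio of 19.99 with an exact interval from 3.43 to 805 that covers counting error only. With no filter it did not pass (edgeR, adjusted p = 0.349). Il17c, the epithelial member of the IL-17 family, had 59 reads in Experimental and 13 reads in Littermate skin, a ratio of 1.78 with an interval from 0.965 to 3.54 (edgeR with no filter, adjusted p = 0.619).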
